A study of Mus musculus with 24 samples.

Results

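The 10 genes described here handle iron in the cell: the ferritin subunits Fth1 and Ftl1, the transferrin receptor Tfrc, the exporter ferroportin Slc40a1, the metal transporters Slc11a1 and Slc11a2, the iron regulatory proteins encoded by Aco1 and Ireb2, the ferritin receptor Ncoa4 and the metalloreductase Steap4. They were taken by symbol from a table of read counts for 54532 genes, and all 10 were found in it. The table holds RNA-seq counts from macrophages expanded from mouse bone marrow and from the osteoclasts that form from them. Days 3 and 5, 2 media and 2 genotypes gave 8 groups of 3 libraries each, 24 in all. The wells for osteoclasts received RANKL, the cytokine that turns macrophages into bone-resorbing osteoclasts, at 50 ng/mL together with the macrophage growth factor M-CSF at 30 ng/mL. The other wells are labelled M-CSF, and the sources used here do not give its dose. Both genotypes carried a Runx1 transgene at Rosa26 (Rosa26-Runx1tg/+). The controls had no Cre. The others also had LysM-Cre, whose promoter works across the myeloid lineage and not only in osteoclast precursors, and are labelled Runx1 overexpression. Erythrocytes had been lysed when the marrow was taken, and wells were seeded with 15000 cells. The labels number the libraries 1 to 3 within each group without saying what a number stands for, so the p-values cover only how far these samples spread, and that spread may be technical.

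Macrophages recycle most of the body's iron from old red cells. Iron bound to transferrin enters cells through Tfrc, is reduced by metalloreductases of the Steap family, crosses the endosomal membrane through Slc11a2 (DMT1), and is stored inside ferritin, a shell of heavy (Fth1) and light (Ftl1) chains. Slc11a1 (NRAMP1) moves metal out of the phagosome, Ncoa4 carries ferritin to the lysosome for release of its iron, and Slc40a1 is the only known iron exporter of mammalian cells. In iron-poor cells the regulatory proteins bind hairpins called iron-responsive elements in messenger RNA, blocking translation of ferritin and protecting the Tfrc message from decay. Osteoclasts are rich in mitochondria, which use iron in heme and iron-sulfur clusters.

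The elements are shown because they place the storage genes and the uptake gene under opposite control by the same proteins. A search was made for a bulged C, 5 bases, a loop of CAGTG and then A, C or T, and a stem of 5 pairs, with G-T pairs allowed. It covered the longest complete coding transcript of each gene in GENCODE M21 (GRCm38), and other transcripts of a gene were not searched. Matches are given for 8 of the 10 genes, and results for Slc40a1 and Slc11a2 are not reported here. Capitals mark the bulged C and the 6 loop bases, and each line is 27 bases, written 5′ to 3′ on the strand of the gene. Fth1 and Ftl1 held 1 element each in the 5′ UTR, at chr19:9982733-9982759 (plus strand) and chr7:45459780-45459806 (minus strand).
Fth1: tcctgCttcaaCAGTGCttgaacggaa
Ftl1: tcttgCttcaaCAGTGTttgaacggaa
Tfrc held 4 elements in the 3′ UTR on the plus strand, at chr16:32631220-32631246, chr16:32631599-32631625, chr16:32631664-32631690 and chr16:32631711-32631737, in that order.
Tfrc element 1: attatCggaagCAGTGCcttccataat
Tfrc element 2: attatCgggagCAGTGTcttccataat
Tfrc element 3: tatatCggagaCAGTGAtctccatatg
Tfrc element 4: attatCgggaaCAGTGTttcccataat
Of 21760 genes searched, 17 (0.0781%) held a match in the 5′ UTR and 91 (0.418%) in the 3′ UTR. No match was found in Slc11a1, Aco1, Ireb2, Ncoa4 or Steap4. A match is a description of letters and not a measured binding site, and RNA-seq does not measure translation.

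In the deposited table Fth1 (ENSMUSG00000024661) lies at chr19:9982703-9985092, Ftl1 (ENSMUSG00000050708) at chr7:45457944-45459884, Tfrc (ENSMUSG00000022797) at chr16:32608920-32632794 and Slc40a1 (ENSMUSG00000025993) at chr1:45908068-45926523. Slc11a1 (ENSMUSG00000026177) lies at chr1:74375195-74386062, Slc11a2 (ENSMUSG00000023030) at chr15:100387898-100425072 and Aco1 (ENSMUSG00000028405) at chr4:40143081-40198338. Ireb2 (ENSMUSG00000032293) lies at chr9:54863789-54912530, Ncoa4 (ENSMUSG00000056234) at chr14:32159865-32179855 and Steap4 (ENSMUSG00000012428) at chr5:7960457-7982213. All are protein coding. The submitters' notes name the build GRCm39, but 9 of these 10 positions are those of GENCODE M21 on GRCm38, and the Fth1 entry starts at another base of that build.

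Library totals ran from 18975750 to 36523995 counts, and 1 count was worth 0.02857 to 0.05417 CPM (the count scaled by library size, TMM-adjusted). The 10 osteoclast markers summed to 111 to 175 CPM in the M-CSF libraries and to 36200 to 59900 CPM in the RANKL libraries, and the 10 macrophage markers to 7520 to 10600 and 2970 to 4590 CPM. The 10 erythroid markers summed to at most 2.7 CPM in any library, with Hba-a2 and Hbb-bt at 0 counts in every group, which bears on Tfrc and ferritin because red cell precursors express both. Neutrophil granule markers (8 genes) summed to 56.4 to 196 CPM, stromal and osteoblast markers (8 genes) to 7.98 to 303 CPM, and monocyte markers (5 genes) to 16.2 to 44.4 CPM with RANKL and 209 to 374 CPM without. Lymphoid markers (5 genes) reached 0.474 CPM and dendritic markers (4 genes) 11.2 CPM at most. Mitochondrial transcripts took 1.54% to 1.94% of counts in the M-CSF groups and 3.44% to 3.89% in the RANKL groups. The part of these cell markers and of mitochondrial reads in the results was not tested. Runx1 did not check the genotype labels: its log2 difference between genotypes was 0.00 to 0.23 in the 4 combinations of day and medium (adjusted p 1 in each), so these libraries are called by their label. Lyz2, another gene chosen to check the labels, was lower in the libraries labelled Runx1 overexpression in all 4 combinations. Its log2 differences were −0.60 and −0.67 at day 3 without and with RANKL and −0.38 and −0.35 at day 5. None passed by edgeR at an adjusted p under 0.05. Y-linked genes had 2576 counts over the 4 number 3 libraries labelled Runx1 overexpression, which had 2 to 12 Xist counts each. The other 5 numbered sets of 4 libraries had 0 to 2 Y-linked counts per set and at least 14963 Xist counts per library. That set thus has a male pattern and the others a female one. No label gives the sex, so results that rest on these 4 libraries are given with and without them.

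Levels of different genes are compared as CPM per kilobase of the deposited gene length. That length is 9365 bases for Ncoa4, 866 for Fth1 and 3155 for Steap4. The longest complete coding transcript of these genes in GENCODE M21 has 4065, 1494 and 3155 bases. The order of the genes and their ranks thus depend on the length used, and other lengths were not tried. In control cells at day 3 without RANKL Fth1 stood at 10090 ± 421 CPM per kb and Ftl1 at 4492 ± 283 (SD, n = 3 here and below), which placed them 2nd and 4th among 22046 protein-coding genes. Slc11a1 followed at 162.6 ± 13.4, Slc40a1 at 81.09 ± 14.3 and Tfrc at 39.7 ± 7.9 CPM per kb. Ncoa4 (20.61 ± 8.26) and Aco1 (18.6 ± 1.3) overlapped, Ireb2 (11.58 ± 0.563) and Slc11a2 (7.224 ± 0.181) were lower, and Steap4 had no counts. With RANKL at day 3 Fth1 (2653 ± 124 CPM per kb, 7th) and Ftl1 (1796 ± 239, 14th) still led, but Tfrc was the third of the set at 160.5 ± 43.3. Ncoa4 (41.91 ± 6.56), Steap4 (41.52 ± 16) and Aco1 (35.9 ± 2.06) came next, with neighbours overlapping, and Slc40a1 was the lowest at 8.906 ± 3.94, overlapping Ireb2 at 13.63 ± 0.59. At day 5 with RANKL Tfrc reached 449.1 ± 45 CPM per kb, 65th among protein-coding genes, and Slc40a1 4.321 ± 0.442, 7009th. The cells labelled Runx1 overexpression had Fth1 and Ftl1 on top in all 4 groups, with Slc11a1, Slc40a1 and Tfrc next without RANKL and Tfrc next with RANKL.

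**Figure D1:**
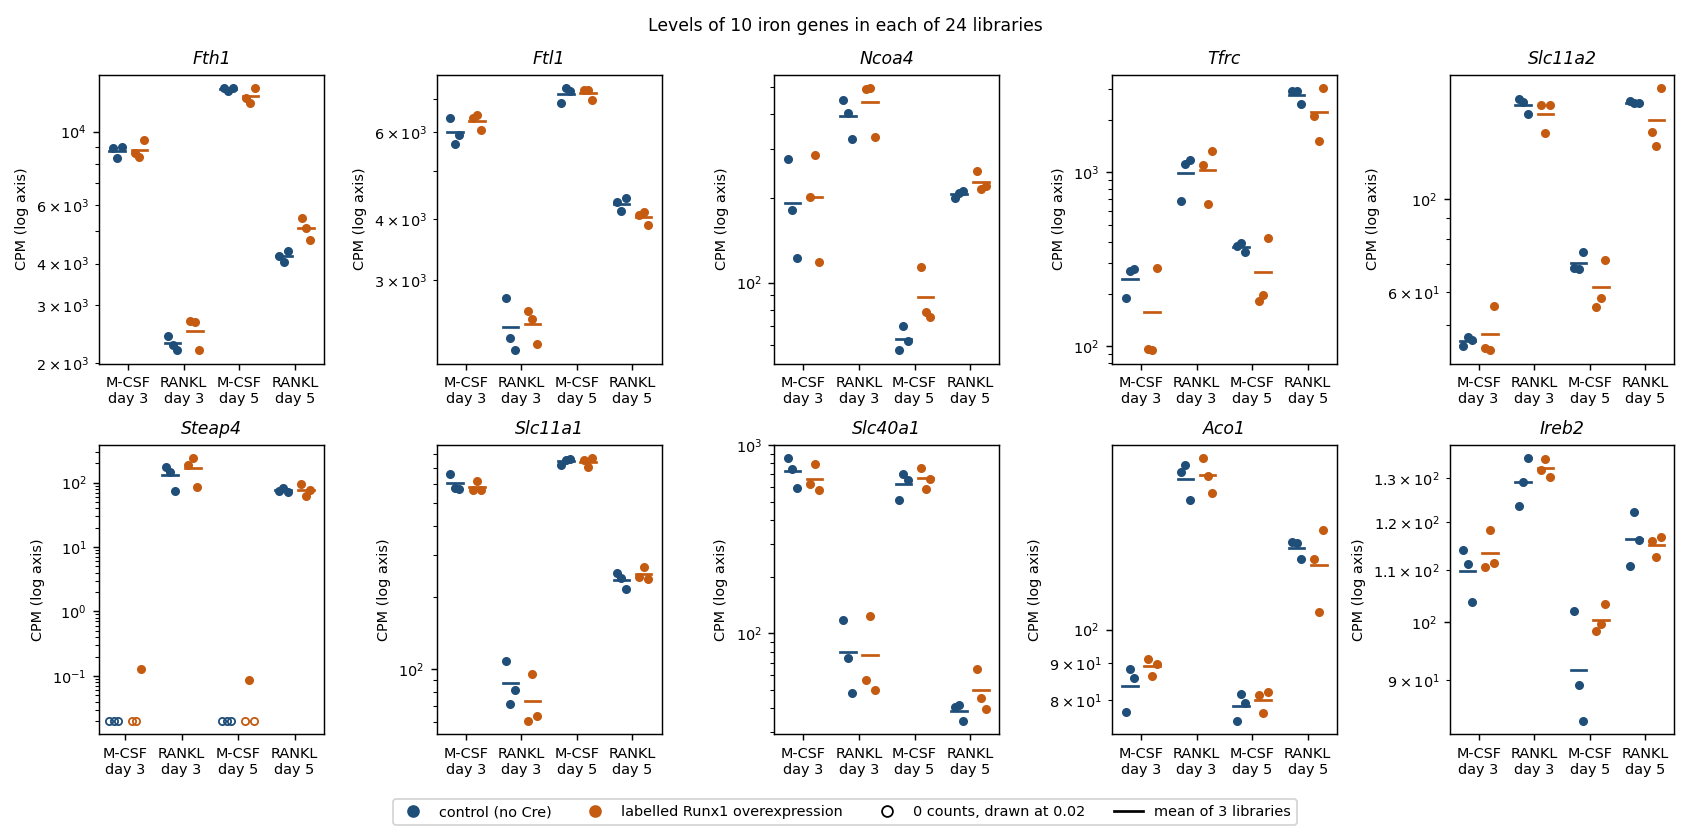
CPM of each of the 10 iron genes in every library (log axis, points), with the mean of 3 libraries as a line. Open points are libraries with 0 counts, drawn at 0.02. Fth1, Ftl1, Slc40a1 and Slc11a1 are lower with RANKL at both days, Tfrc, Slc11a2, Aco1 and Ncoa4 are higher, and Steap4 is at 0 to 0.1296 CPM without RANKL and at 61.71 to 239.5 CPM with RANKL.

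Setting RANKL against M-CSF alone asks how these genes differ between the wells for osteoclasts and the others. The M-CSF dose is given only for the wells with RANKL, so an effect of that dose cannot be told apart from RANKL. Both ferritin chains, the exporter and the phagosomal transporter were lower with RANKL. The transferrin receptor, DMT1, both iron regulatory proteins, the ferritin receptor and Steap4 were higher. This division of 4 lower and 6 higher genes was found in both genotypes at both days, and all 10 genes passed the test in each comparison (edgeR, adjusted p under 0.05). Of all tested genes 59.1% passed in controls at day 3, of which 29.5% of all genes upward and 29.7% downward, and 49.4% passed at day 5, with 26.4% upward and 23.1% downward. For the other genotype these shares were 59.2% (29.1% upward, 30.1% downward) on day 3, then 52.4% (27.5% upward, 24.9% downward) on day 5. Their values did not overlap between the media for any of the 10 genes, against 61.1%, 65.1%, 58.2% and 63.8% of all genes. So large a share of all genes passed that the count of 10 is no result about the iron genes. Without Steap4, the median absolute log2 fold change of the other 9 genes was 1.87, 1.65, 1.74 and 1.32 in that order, against 0.66, 0.51, 0.66 and 0.55 over all tested genes. The signed median of these 9 genes was 0.236, 0.345, 0.221 and 0.197, against −0.03, 0.03, −0.02 and 0.03 over all genes. With 4 of the 9 below 0, this median is the value of Ireb2, the smallest rise. With Steap4 included at its bound the median was 0.59, 0.53, 0.55 and 0.41, midway between Ireb2 and Aco1. Neither median shows a shift of the genes as a set. Steap4 passed the filter on low counts only through the RANKL groups and so had to differ. In bulk RNA a change in the number of cells of a type and a change in RNA per cell cannot be told apart.

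Storage genes fell. Fth1, the heavy chain that oxidises iron for storage, was at 8927, 8320 and 8974 CPM in control libraries 1 to 3 at day 3 without RANKL and at 2413, 2279 and 2201 CPM with RANKL. At day 5 it was at 13550, 13220 and 13530 CPM against 4203, 4054 and 4359 CPM. The libraries labelled Runx1 overexpression had it at 8629, 8377 and 9407 against 2675, 2669 and 2187 CPM at day 3, and at 12600, 12240 and 13570 against 5497, 5129 and 4710 CPM at day 5. No RANKL library reached the lowest M-CSF library of either day. The fall was 1.93 log2 units at day 3 in controls (log2 fold change −1.93, SE 0.09, adjusted p = 6.395e-13) and 1.68 at day 5 (−1.68, SE 0.09), and −1.81 and −1.32 (SE 0.09 each) in the other genotype.

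Ftl1, the light chain that helps the iron core form, was at 6433, 5689 and 5938 CPM in control libraries at day 3 without RANKL and at 2769, 2291 and 2161 CPM with RANKL, and at 6882, 7398 and 7276 against 4332, 4144 and 4413 CPM at day 5. The other genotype had 6421, 6515 and 6076 against 2596, 2500 and 2230 CPM, and 7331, 7326 and 6990 against 4081, 4139 and 3889 CPM. Its log2 fold changes were −1.32 and −1.38 at day 3 and −0.74 and −0.84 at day 5 (SE 0.09 each). Ftl1 has near-identical copies, so its level is uncertain to the extent that reads were split among them; the copy Ftl1-ps1 was counted at 0.263% to 0.364% of Ftl1. Together Fth1 and Ftl1 took 1.55% ± 0.0583 of all counts in control cells at day 3 without RANKL and 0.469% ± 0.0383 with RANKL. At day 5 these shares were 2.00% ± 0.0335 and 0.843% ± 0.0255.

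The heavy chain fell further than the light chain. Fth1 had 1.39, 1.46 and 1.51 counts per Ftl1 count in the control libraries at day 3 without RANKL and 0.871, 0.995 and 1.02 with RANKL. At day 5 the ratios were 1.97, 1.79 and 1.86 against 0.97, 0.978 and 0.988. Over all 24 libraries the log2 ratio was 0.61 lower with RANKL, which is 1.53-fold (exact permutation test within day and genotype, two-sided p = 1.25e-05, the smallest that the 160000 arrangements can give). The ratio of counts within a library does not depend on scaling, and it shows unequal change, not that either chain held its level.

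**Figure D2:**
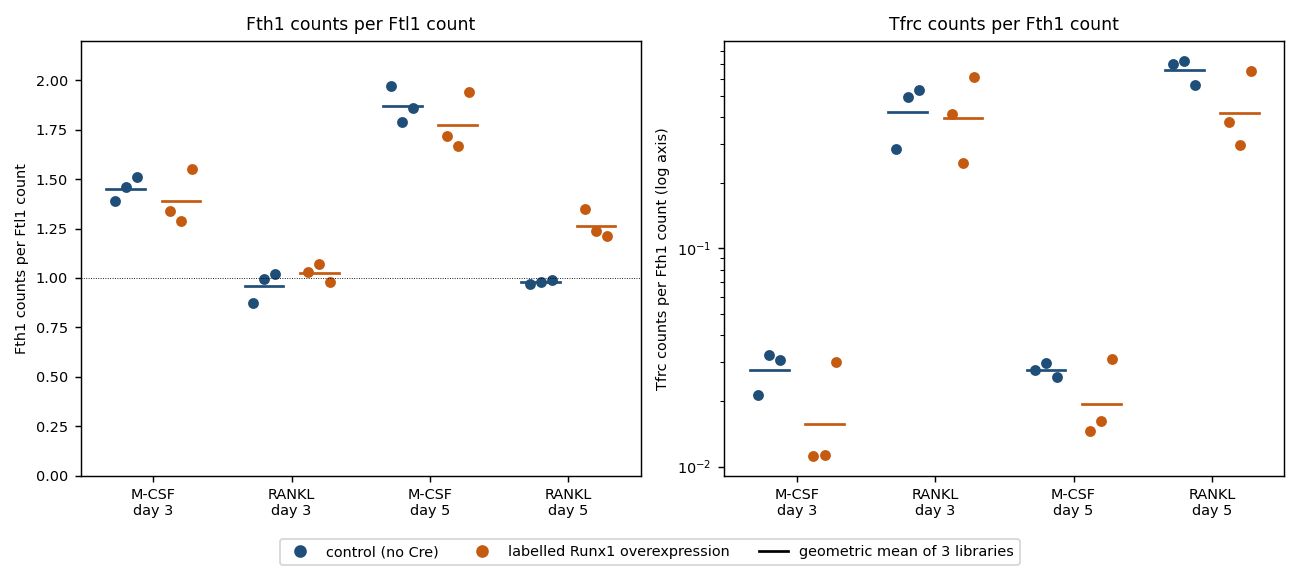
Counts of Fth1 per count of Ftl1 (left, linear axis, dotted line at equal counts) and of Tfrc per count of Fth1 (right, log axis) in each library, with the geometric mean of 3 libraries as a line. The left ratio runs from 1.29 to 1.97 without RANKL and from 0.871 to 1.35 with RANKL, and the right ratio from 0.0112 to 0.0325 and from 0.247 to 0.726.

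Ncoa4, which delivers ferritin to the lysosome, was higher with RANKL. It was at 275.5, 181.5 and 122.2 CPM in control libraries at day 3 without RANKL against 446.9, 404.6 and 325.9 CPM, and at 57.22, 69.99 and 61.64 against 200.2, 209.2 and 212.8 CPM at day 5. The libraries labelled Runx1 overexpression stood at 202.3, 285 and 118 against 492, 496.6 and 331.5 CPM at day 3 and at 113.6, 78.41 and 75.14 against 249.7, 216.2 and 221.6 CPM at day 5. The log2 fold changes were 1.02 (SE 0.27, adjusted p = 0.002843) and 1.72 (SE 0.28) in controls and 1.12 and 1.36 (SE 0.27 each) in the other genotype. Within the day 3 groups library number 3 was the lowest in 4 of 4, and within the day 5 groups in 1 of 4.

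Uptake genes rose. Tfrc, the receptor for iron-loaded transferrin, was at 189.2, 270.3 and 277.1 CPM in control libraries at day 3 without RANKL and at 684.9, 1122 and 1172 CPM with RANKL. At day 5 it was at 375.3, 394.6 and 347.6 against 2935, 2941 and 2456 CPM. The other genotype had it at 96.59, 94.89 and 283.2 against 1109, 659.7 and 1336 CPM, and at 182.8, 198.7 and 422.1 against 2096, 1524 and 3068 CPM. Every RANKL library was above every M-CSF library of its day and genotype. The rise was 2.02 log2 units (SE 0.40, adjusted p = 0.0002042), or 4.04-fold, at day 3 and 2.90 (SE 0.41), or 7.46-fold, at day 5 in controls, and 2.71 and 3.06 (SE 0.41 and 0.42) in the other genotype. The ratio of Tfrc to Fth1 counts was 0.0277 in control cells without RANKL at both days and 0.421 and 0.658 with RANKL (geometric means). Over all libraries it was 21.1-fold higher with RANKL (exact permutation test within day and genotype, two-sided p = 1.25e-05, again the smallest possible). Tfrc was higher and Fth1 lower in every RANKL library than in every M-CSF library of its day and genotype. The ratio therefore had to separate, so this p follows from those results and adds no support to them.

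Slc11a2, which passes reduced iron out of the endosome, was at 44.66, 46.94 and 46.11 CPM in control libraries at day 3 without RANKL and at 172.8, 170.1 and 159 CPM with RANKL. At day 5 it was at 68.54, 68.15 and 74.68 against 171, 169 and 168.8 CPM. The libraries labelled Runx1 overexpression ran from 43.51 to 55.48 against 143.4 to 167.4 CPM at day 3 and from 55.36 to 71.6 against 133.7 to 184.1 CPM at day 5. The log2 fold changes were 1.87 and 1.27 in controls and 1.74 and 1.32 in the other genotype (SE 0.12 each). Its RANKL levels were thus nearly the same at both days in controls, 167.3 ± 7.3 and 169.6 ± 1.21 CPM, and the M-CSF level differed.

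Steap4, a metalloreductase of iron and copper, was not counted once in the 6 control libraries without RANKL. It had 174, 143.6 and 75.37 CPM in control libraries with RANKL at day 3 and 74.89, 83.09 and 71.24 CPM at day 5. Against a limit of 3 counts over the group, it was at least 2993-fold higher at day 3 and at least 1474-fold higher at day 5. The other genotype had 3 counts in all at day 3 without RANKL, in library 3, and 2 at day 5, in library 2. With RANKL it had 187, 239.5 and 85.12 CPM and 96.36, 61.71 and 75.63 CPM, which gives ratios of 4060 (95% counting interval 1390 to 19700) and 2547 (705 to 21000). These bounds and intervals cover counting error only.

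The exporter and the phagosomal transporter fell. Slc40a1 was at 851.8, 742.9 and 594.8 CPM in control libraries at day 3 without RANKL and at 118.3, 73.96 and 48.2 CPM with RANKL, and at 509.3, 705.1 and 649 against 40.54, 41.78 and 34.35 CPM at day 5. The libraries labelled Runx1 overexpression stood at 618.6, 791.5 and 576.9 against 56.45, 124.2 and 50.39 CPM, and at 755.3, 584 and 658.8 against 64.76, 45.67 and 39.83 CPM. Its log2 fold changes, −3.19 (SE 0.33, adjusted p = 4.883e-08) and −4.00 (SE 0.34) in controls and −3.11 (SE 0.33) and −3.73 (SE 0.33) in the other genotype, were the furthest below 0 among the 10 genes in each comparison. In each of the 4 day 3 groups the library with the least Tfrc had the most Slc40a1, and this held in 1 of the 4 day 5 groups.

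Slc11a1 was at 659.8, 576.4 and 571.1 CPM in control libraries at day 3 without RANKL and at 107.8, 70.92 and 81.7 CPM with RANKL. At day 5 it was at 718.6, 753.6 and 765.7 against 252.5, 241.7 and 217.6 CPM. The other genotype ran from 563 to 614 against 60.37 to 95.29 CPM and from 704.5 to 769.6 against 239.9 to 268.5 CPM. The groups were far apart at both days, with log2 fold changes of −2.79 and −2.99 at day 3 and −1.65 and −1.57 at day 5 (SE 0.15 each).

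The regulators moved least. Aco1, a cytosolic aconitase that becomes iron regulatory protein 1 when it loses its iron-sulfur cluster, was at 77.06, 88.19 and 85.65 CPM in control libraries at day 3 without RANKL and at 164.7, 168.6 and 150.9 CPM with RANKL, and at 78.47 ± 3.37 against 129.6 ± 3.99 CPM at day 5. The other genotype stood at 88.97 ± 2.49 against 163.2 ± 9.02 CPM and at 80.04 ± 2.79 against 122.8 ± 15.9 CPM. The log2 fold changes were 0.95, 0.72, 0.87 and 0.62 (SE 0.08 each).

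Ireb2, iron regulatory protein 2, whose protein is degraded in iron-rich cells, was at 114.1, 111.3 and 103.8 CPM in control libraries at day 3 without RANKL and at 123.6, 129.2 and 134.8 CPM with RANKL. At day 5 it was at 91.63 ± 9.47 against 116.4 ± 5.71 CPM, and in the other genotype at 113.5 ± 4.2 against 132.3 ± 2.23 and at 100.5 ± 2.62 against 115.2 ± 2.26 CPM. The log2 fold changes of 0.24 and 0.35 in controls and 0.22 and 0.20 in the other genotype (SE 0.07 each; adjusted p 0.00772, 0.0004235, 0.01166 and 0.02636) were smaller than the median of all tested genes in size. The call did not hold in every setting: with only the compared groups in the fit the adjusted p was 0.06181 in controls at day 3 and 0.09697 in the other genotype, and with no filter on low counts it was 0.08507 and 0.06644 in the libraries labelled Runx1 overexpression at days 3 and 5. At day 5 in that genotype the call was also lost without library 1 (adjusted p 0.1405), 2 (0.1216) or 3 (0.06734) without RANKL, without library 1 (0.06121) or 3 (0.1096) with RANKL, and without the 4 number 3 libraries (0.09527). The other 9 genes kept their direction and call without those 4 libraries.

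**Figure D3:**
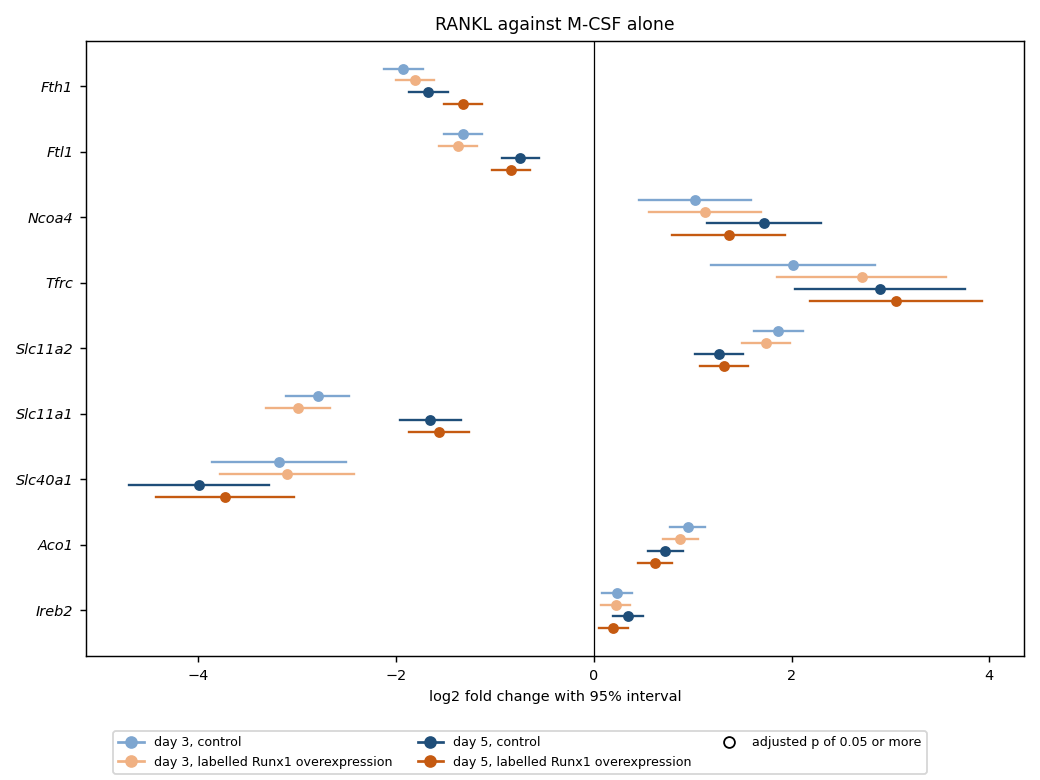
Log2 fold change of RANKL against M-CSF alone with its 95% interval for 9 iron genes in the 4 combinations of day and genotype; Steap4 has no finite fold and is left out. Slc40a1 lies furthest left (−3.11 to −4.00), Tfrc furthest right (2.02 to 3.06), and Ireb2 nearest to 0 (0.20 to 0.35).

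The genotype comparison asks whether the cells labelled Runx1 overexpression handle iron transcripts differently from controls. None of the 10 genes was called by edgeR at either day in either medium, and none of all 15035 genes was (0% in each of the 4 comparisons). At an unadjusted p under 0.05 the counts were 0, 0 and 0 of the 10 genes at day 3 without RANKL, day 3 with RANKL and day 5 without RANKL, and 1 at day 5 with RANKL, against 530, 258, 948 and 457 of all genes. DESeq2 also called 0 of the 10 in each, and 3, 1, 18 and 5 of all genes. With the number 3 libraries labelled Runx1 overexpression left out, edgeR called 35, 6, 110 and 39 of all genes. These were 0.228%, 0.0391%, 0.717% and 0.254%, and 1, 0, 0 and 0 of the 10 genes were then called. The median absolute log2 difference of the 9 genes other than Steap4 was 0.06, 0.06, 0.10 and 0.14, against 0.12, 0.09, 0.14 and 0.10 over all genes. A missed threshold does not show equal levels: the 95% intervals at day 3 without RANKL were −0.18 to 0.20 for Fth1, −0.12 to 0.26 for Ftl1, −0.10 to 0.20 for Ireb2, −0.76 to 0.48 for Slc40a1 and −1.44 to 0.17 for Tfrc, so that the last could hide a larger difference than the others. Over the 4 combinations the log2 difference ran from −0.25 to 0.08 for Slc11a1, from −0.19 to 0.05 for Slc11a2, from −0.08 to 0.09 for Aco1 and from −0.14 to 0.36 for Slc40a1. For Steap4 with RANKL it was 0.38 at day 3 and 0.03 at day 5 (SE 0.33 each).

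Fth1 at day 5 with RANKL was the gene past the unadjusted threshold. Its 5497, 5129 and 4710 CPM in the libraries labelled Runx1 overexpression lay above all 3 control values of 4054 to 4359 CPM, a log2 difference of 0.28 (SE 0.09, unadjusted p = 0.00571 and adjusted p = 1 in the edgeR fit). Ftl1 differed by −0.09 in the same libraries, with 3889 to 4139 against 4144 to 4413 CPM, and Ncoa4 by 0.14, with 216.2 to 249.7 against 200.2 to 212.8 CPM. These were the 3 of 10 genes without overlap there, where 10.3% of all genes had none; at day 5 without RANKL 1 of 10 (Ncoa4, 75.14 to 113.6 against 57.22 to 69.99 CPM) had none, against 16.8%, and at day 3 the count was 0 of 10 in both media, against 5.41% and 5.65%. The Fth1 to Ftl1 ratio at day 5 with RANKL was 1.35, 1.24 and 1.21 in the libraries labelled Runx1 overexpression and 0.97, 0.978 and 0.988 in controls. The groups did not overlap; the log2 difference of 0.37 had an exact permutation p of 0.1, two-sided, the smallest that 3 against 3 libraries allow, and 0.533 after Benjamini-Hochberg adjustment over 8 such tests, and it was 0.40 without number 3.

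Tfrc differed between the numbered sets of the same genotype. Among the libraries labelled Runx1 overexpression number 3 had the most Tfrc in 4 of 4 groups, and numbers 1 and 2 had 96.59 and 94.89 CPM at day 3 without RANKL where number 3 had 283.2 CPM and the controls 189.2 to 277.1 CPM. The log2 difference between genotypes in that group was −0.63 (SE 0.39, adjusted p = 1) with all libraries and −1.36 without number 3 (adjusted p = 0.02739). Without number 3, Tfrc was the 1 of 10 iron genes called there, where 35 of all tested genes (0.228%) were. In the other combinations the value without number 3 was −0.16 at day 3 with RANKL (adjusted p 0.9843), −0.97 at day 5 without RANKL (0.08624) and −0.62 at day 5 with RANKL (0.4685), against 0.06, −0.48 and −0.32 with it. Slc11a2 was also highest in number 3 in 3 of 4 groups labelled Runx1 overexpression. The label number, the pattern of male cells and the Tfrc level of number 3 cannot be told apart with 1 such set. The plot of Tfrc by label number shows that number 3 of the controls, which has the female pattern, was the highest of its group in 2 of 4 groups.

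**Figure D4:**
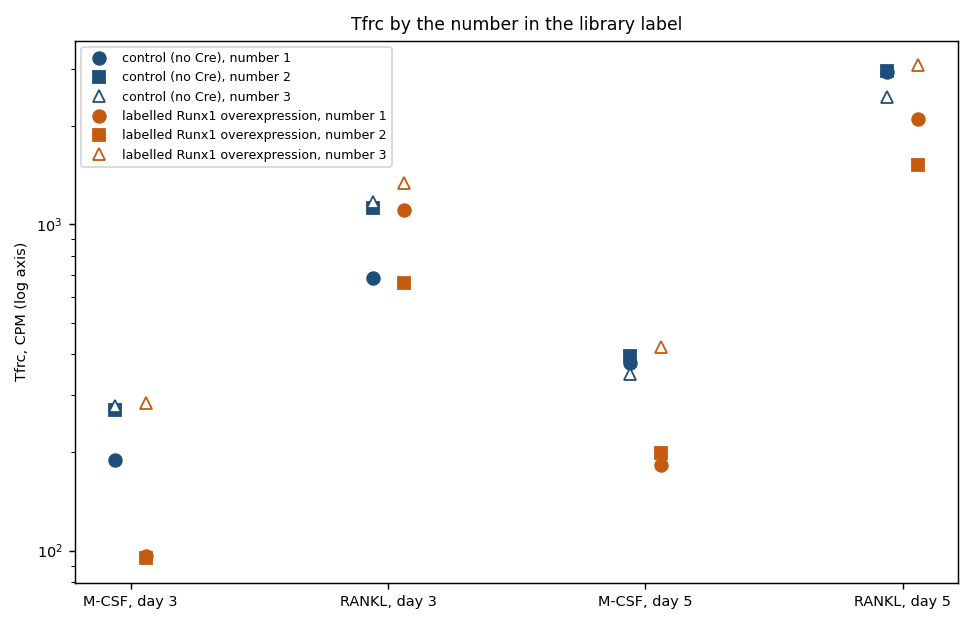
Tfrc in CPM (log axis) in each library by medium and day, with colour for genotype, a marker shape for the number in the label and open markers for number 3. In M-CSF alone numbers 1 and 2 labelled Runx1 overexpression lie at 94.89 to 198.7 CPM and number 3 at 283.2 and 422.1 CPM, and the control libraries lie between 189.2 and 394.6 CPM.

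The response to RANKL did not differ by genotype for any of the 10 genes at either day by edgeR or DESeq2 (0% of all genes called by edgeR at both days). At an unadjusted p under 0.05 the counts were 0 and 1 of the 10 genes, against 242 and 481 of all genes. The 1 gene was Fth1 at day 5, whose fall was 0.35 log2 units smaller in the libraries labelled Runx1 overexpression (SE 0.13, 95% interval 0.08 to 0.62, adjusted p = 0.9999). The interval for Tfrc, −0.44 to 1.83 at day 3, was wide. At days 3 and 5 the differences in response were 0.08 and 0.26 for Slc40a1, 0.10 and −0.36 for Ncoa4, −0.20 and 0.09 for Slc11a1 and −0.13 and 0.05 for Slc11a2. Those of Ftl1 (−0.05 and −0.10), Aco1 (−0.07 and −0.11) and Ireb2 (−0.01 and −0.15) were also within their intervals around 0, and no finite fold can be given for Steap4. Without the number 3 libraries labelled Runx1 overexpression, the Tfrc difference at day 3 was 1.205 in place of 0.69 (edgeR adjusted p 0.9443). That of Fth1 at day 5 was then 0.45 (adjusted p 0.4523). None of the 10 genes was called at either day, against 0% and 0.0456% of all genes at days 3 and 5.

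The comparison of day 5 with day 3 asks how the iron genes went on changing in each medium. With RANKL, ferritin, the transferrin receptor and Slc11a1 rose from day 3 to day 5 in both genotypes, while Aco1 and Ncoa4 fell. In controls 4 of the 10 genes rose and 3 fell, where 26.8% of all genes were called (14.1% higher and 12.7% lower). Values of the days did not overlap for 8 of the 10, against 49.8% of all genes. Fth1 rose by 0.87 and Ftl1 by 0.84 log2 units (SE 0.09 each), Slc11a1 by 1.45 (SE 0.15) and Tfrc by 1.48 (SE 0.39, adjusted p = 0.008683). Slc40a1 fell by 1.04 (SE 0.31), Ncoa4 fell by 0.92 (SE 0.27) and Aco1 fell by 0.32 (SE 0.08). Steap4 (−0.78, SE 0.33, adjusted p = 0.09461), Ireb2 (−0.15, adjusted p = 0.1267) and Slc11a2 (0.02, adjusted p = 0.9237) did not pass. The median absolute change of the 9 genes other than Steap4 was 0.87, against 0.34 over all genes.

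In the libraries labelled Runx1 overexpression 4 genes rose and 4 fell with RANKL, where 33.2% of all genes were called (17.6% higher and 15.6% lower). The days did not overlap for 7 of 10, against 46.4% of all genes, and Steap4 was called although its values overlapped. Fth1 rose by 1.03, Ftl1 by 0.72 (SE 0.09 each), Slc11a1 by 1.78 (SE 0.15) and Tfrc by 1.11 (SE 0.39). Steap4 fell by 1.13 (SE 0.33, adjusted p = 0.01627), Ncoa4 fell by 0.94 (SE 0.27), Aco1 fell by 0.41 (SE 0.08) and Ireb2 fell by 0.20 (SE 0.07). Slc40a1 was lower by a value that did not pass (−0.62, SE 0.31, adjusted p = 0.1242), and Slc11a2 differed by −0.05 (adjusted p = 0.7769).

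In M-CSF alone fewer genes changed with time. In controls Fth1 (0.62, SE 0.09), Slc11a2 (0.62, SE 0.12) and Ftl1 (0.26, SE 0.09, adjusted p = 0.04742) rose, and Ncoa4 (−1.62, SE 0.28) and Ireb2 (−0.26, SE 0.07, adjusted p = 0.01338) fell, 5 of 10 where 23.7% of all genes were called (12.2% higher and 11.5% lower). The days did not overlap for 7 of 10 genes there, against 39.0% of all genes. In the libraries labelled Runx1 overexpression Fth1 (0.54, SE 0.09) and Slc11a2 (0.37, SE 0.12) rose and Ncoa4 (−1.18, SE 0.27) fell, 3 of 10 where 14.3% were called (7.17% higher and 7.08% lower). The days did not overlap for 6 of 10, against 28.1%, and Slc11a2 was called although its values overlapped. Tfrc differed by 0.60 in controls (adjusted p = 0.2769), where the days did not overlap, and by 0.76 in the other genotype (adjusted p = 0.2021). Its call depended on the setting. The control value passed with only the compared groups in the fit (0.58, adjusted p = 0.04333) and without the number 3 libraries labelled Runx1 overexpression (0.58, adjusted p = 0.0498), and the other genotype passed without those libraries (0.98, adjusted p = 0.01879). In that genotype numbers 1 and 2 had 94.89 to 96.59 CPM at day 3 and 182.8 to 198.7 CPM at day 5, and number 3 had 283.2 and 422.1 CPM. Slc40a1 was at 729.8 ± 129 and 621.1 ± 101 CPM in controls at days 3 and 5, a difference within its spread. Slc11a1 (0.31 in controls and 0.36 in the other genotype, adjusted p 0.1221 and 0.1001) and Aco1 (−0.09 and −0.15) did not pass in either genotype, nor did Ftl1 (0.19), Ireb2 (−0.18) and Slc40a1 (0.01) in the other genotype. Steap4 was at 0 to 3 counts per group. The median absolute change of the 9 genes was 0.31 and 0.36, against 0.32 and 0.27 over all genes.

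**Figure D5:**
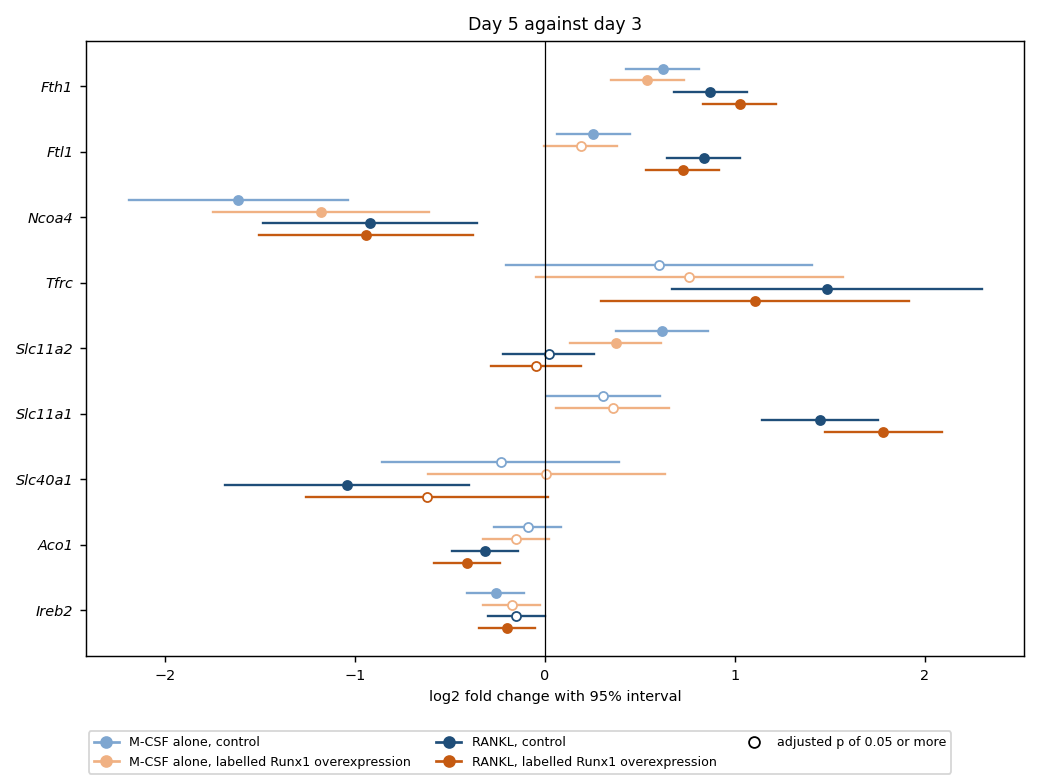
Log2 fold change of day 5 against day 3 with its 95% interval for 9 iron genes in each medium and genotype; filled points have an adjusted p under 0.05 and open points do not, and Steap4 is left out because it was at or near 0 counts without RANKL. Ncoa4 is left of 0 in all 4 comparisons (−0.92 to −1.62) and Fth1 right of 0 (0.54 to 1.03).

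Several of these calls of a change with time were lost or gained when 1 library was left out. In controls with RANKL, without library 1 of day 3, Tfrc (1.26, adjusted p 0.06261), Slc40a1 (−0.67, 0.1463) and Ncoa4 (−0.84, 0.06934) no longer passed, and 4 genes were left. Slc40a1 was also lost without library 3 of day 5 (adjusted p 0.06609) and Ncoa4 without library 1 of day 5 (0.0589), while Steap4 passed without library 3 of day 3 (−1.05, 0.02881). With RANKL in the libraries labelled Runx1 overexpression, 4 genes were left without library 1 of day 3, and 5 without library 2 of day 3 or of day 5. There Tfrc was lost without library 1 (adjusted p 0.07773) or 2 (0.1573) of day 3 or library 1 (0.05693) or 3 (0.1538) of day 5, Steap4 without library 1 (0.05763) or 2 (0.1033) of day 3 or library 2 (0.08357) of day 5, and Ncoa4 without library 1 of day 3 (0.05089) or library 2 of day 5 (0.05088). Ireb2 was lost there without library 1 (0.07952) or 2 (0.08531) of day 3 and without any library of day 5 (0.08074, 0.1216 and 0.06184), and Slc40a1 passed without library 3 of day 3 (−0.86, 0.04958). In M-CSF alone the control call of Ftl1 was lost without library 2 (0.1621) or 3 (0.08675) of day 3 or any of day 5 (0.07076, 0.1297 and 0.09899), and that of Ireb2 without library 1 of day 3 (0.07557) or library 2 (0.05795) or 3 (0.08792) of day 5, which left 3 genes without library 2 or 3 of day 5. In the other genotype without RANKL Slc11a2 was lost without library 1 (0.1499) or 2 (0.1494) of day 3 or library 3 of day 5 (0.1831), Ncoa4 without library 2 of day 3 (−0.85, 0.05834), which left 1 gene, and Tfrc passed without library 3 of day 3 (1.49, 0.008404). The calls of Fth1 and Slc11a1 above, and that of Ftl1 with RANKL, held without each library in turn.

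The RANKL response itself differed between days for a few genes; this test uses the same libraries as the comparisons above and is no independent support for them. The fall of Slc11a1 was smaller at day 5 than at day 3 by 1.14 log2 units (SE 0.20) in controls and by 1.43 (SE 0.20) in the other genotype, and that of Ftl1 by 0.58 and 0.54 (SE 0.13 each). The rise of Slc11a2 was 0.60 smaller at day 5 in controls (log2 −0.60, SE 0.16, adjusted p = 0.01652), and the fall of Fth1 was 0.49 smaller in the libraries labelled Runx1 overexpression (SE 0.13, adjusted p = 0.0133). These were 3 of 10 genes in each genotype, where 14.0% (7.26% higher, 6.73% lower) and 15.2% (8.09% higher, 7.13% lower) of all genes were called. The larger Tfrc response at day 5 in controls (0.88, SE 0.54, adjusted p = 0.3278) and that of Ncoa4 (0.70, SE 0.38, adjusted p = 0.2579) did not pass. Nor did Fth1 (0.25) and Slc40a1 (−0.81) in controls, Tfrc (0.35), Slc40a1 (−0.63), Slc11a2 (−0.42) and Ncoa4 (0.24) in the other genotype, or Aco1 and Ireb2 in either. Without the number 3 libraries labelled Runx1 overexpression the calls of Fth1 (0.40, adjusted p 0.06306) and Ftl1 (0.46, 0.06999) were lost in that genotype, and Slc11a2 passed (−0.58, 0.005327).

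Other genes of iron metabolism were counted by list. The lists were chosen by function, but with earlier results of these data known. Their counts and medians, here and in the next paragraph, therefore describe these genes and are not a test. Genes of heme and hemoglobin uptake, breakdown and export (13 tested) were read against the shares of all genes given above, 29.7% lower and 29.5% higher in controls at day 3 and 23.1% and 26.4% at day 5. With RANKL 9 fell and 3 rose in controls at day 3, and 8 fell and 1 rose at day 5, with the same counts in the other genotype. At day 5 in controls Slc48a1, a heme transporter of the lysosome, changed by −1.61 log2 units, Cd163, the hemoglobin scavenger receptor that is also among the macrophage markers, by −6.28, Hmox1, which opens the heme ring and frees its iron, by −3.49, and Blvrb, a biliverdin reductase, by −1.27. Of 18 tested genes of other iron transport, reduction and regulation (24 listed), 8 fell and 3 rose in controls at day 3 and 10 fell and 3 rose at day 5, against the same shares of all genes. Here Trf (transferrin) changed by −3.10, Slc39a8, a metal importer, by −2.08, and Snx3 and Picalm, which take part in the trafficking of the transferrin receptor, by −1.18 and −1.02. The median log2 fold changes at day 5 were −0.69 and −0.77 for these lists, against 0.03 over all genes.

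Of 22 tested genes of mitochondrial iron and iron-sulfur assembly (24 listed), 17 rose and 2 fell in controls at day 3, 16 rose and 2 fell at day 5, and 15 rose and 2 fell at each day in the other genotype. Of all genes 29.5% rose and 29.7% fell in controls at day 3, and 26.4% rose and 23.1% fell at day 5. At day 5 in controls Fdxr, the reductase that feeds electrons to cluster assembly, rose by 1.25 log2 units, Glrx5, a cluster carrier, by 1.23 and Fdx1, a ferredoxin, by 1.27, while Slc25a37 (mitoferrin 1), an importer of iron into mitochondria, fell by 1.42. The median of this list was 0.82 at day 3 and 0.54 at day 5. Of the 8 genes of heme synthesis 2 rose at day 3 in controls, a share no larger than that of all genes (29.5%), and 4 rose at day 5 (26.4% of all genes). In the other genotype 4 rose at each day, and none of the 8 fell by edgeR in either genotype. The list's median was 0.09 at day 3 and 0.13 at day 5 in controls, against −0.03 and 0.03 over all genes. At day 5 Alas1, the enzyme of the step that sets the rate of the pathway, rose by 0.92, Fech, which inserts the iron, by 0.52, Uros by 0.44 and Urod by 0.40. With genotype 0 genes of these 4 lists were called by edgeR in any combination of day and medium when all 24 libraries were used.

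Genes with the most similar profiles were sought among 10493 genes by Pearson correlation of log2 CPM over the 24 libraries, which share the difference between the media, so the values describe and are not tested. Fth1 was nearest to Cd36 (r = 0.992), a scavenger receptor, followed by Dennd4b and Tlr13. Slc11a1 was nearest to Trem2 (0.996), a lipid receptor of macrophages, Cd300lb and Gclm, and Ftl1 to Trem2 (0.989), Slc11a1 and Rnf128. Slc40a1 was nearest to Mertk (0.996), a receptor for dying cells, Iqgap2 and Cmklr1. Tfrc was nearest to Cd44 (0.986), the hyaluronan receptor, Tmem26 and Ap1s1, and Slc11a2 to Hyal2 (0.993), Bdh2 and Fgfrl1. Steap4 was nearest to Oscar (0.997), an osteoclast receptor, Slc14a2 and Calcr, the calcitonin receptor. Aco1 was nearest to Iqsec1 (0.988), Acap2 and Aifm1, Ncoa4 to Rel (0.985), Slc38a6 and Serinc5, and Ireb2 less closely to Cpt1c (0.948), Resf1 and Vps54. Among the 10 genes, Ftl1 and Slc11a1 were the closest pair (0.988). The most opposed pairs were Aco1 with Fth1 (−0.968), Slc11a1 (−0.966) and Ftl1 (−0.956), followed by Slc40a1 with Steap4 (−0.951) and Slc11a2 (−0.949).

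The promoters of 8 of the 10 genes were found in the RefSeq table for GRCm38.p6, and Slc40a1 and Slc11a2 were not matched. The 250 bases before each start were searched on both strands for the Runx core motifs TGTGGT and TGCGGT, the antioxidant response motif TGACNNNGC and the E-box CACGTG. Of 32851 promoters of this length, 14.0%, 5.1%, 10.2% and 6.02% held them. Tfrc held 2 matches to TGCGGT, shown in capitals below with the first on the minus strand, and no match to any of the 4 was in the windows of Fth1, Ftl1, Slc11a1, Aco1, Ireb2, Ncoa4 and Steap4. The Tfrc window, chr16:32608646-32608895 on the plus strand, is printed because it held matches. Whether these matches bear on the level of Tfrc in any library was not tested. A match is not a measured binding site.
Tfrc promoter: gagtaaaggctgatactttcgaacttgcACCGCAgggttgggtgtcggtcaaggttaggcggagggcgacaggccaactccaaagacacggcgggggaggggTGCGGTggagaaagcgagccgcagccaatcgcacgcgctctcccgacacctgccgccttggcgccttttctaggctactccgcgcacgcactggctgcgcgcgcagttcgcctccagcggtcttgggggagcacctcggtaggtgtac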

How the data were processed

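The authors deposited 1 table that gives each gene's position, length and raw read counts. Per the submitters' processing notes STAR, DESeq2 and GRCm39 were used; the sources used here give no versions and no counting or strand settings. Without the strand setting, reads of overlapping genes on opposite strands cannot be told apart. Of 54409 identifiers found in GENCODE M21 (GRCm38), 98.3% had the same position.

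Counts of all 24 libraries were fitted in edgeR 4.0.16 (R 4.3.3) with filterByExpr (15035 genes kept, 27.57%), TMM scaling, 1 coefficient per group and the robust quasi-likelihood test, with Benjamini-Hochberg adjustment over all genes tested and calls at 0.05. Every adjusted p is from this fit unless another tool is named; SE and 95% intervals come from it. CPM uses the TMM-scaled library size. Libraries of a group differed by more than counting noise, so none was counted as a repeat. DESeq2 1.42.0, RLE scaling, no filter, only the compared groups, the replicate block and libraries left out were alternatives. The script was tested on simulated data. The named genes are the 10 iron genes, with up to 4 genes per list (those of smallest p at day 5 in controls) and 3 nearest profiles each. The members and lists were chosen with earlier results of these data known; the genotype test of the count ratios was added after seeing the values.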

Additional observations from a re-analysis of the deposited data

Results flagged for a closer look

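For 6 results the response to RANKL differed between day 5 and day 3 by a test of the difference itself (edgeR, adjusted over all genes). In controls these were Slc11a1 (difference 1.14 log2 units, SE 0.20, adjusted p = 0.0005436), Ftl1 (0.58, SE 0.13, adjusted p = 0.004021) and Slc11a2 (−0.60, SE 0.16, adjusted p = 0.01652). The other genotype, labelled Runx1 overexpression, had Slc11a1 (1.43, SE 0.20, adjusted p = 4.551e-05), Ftl1 (0.54, SE 0.13, adjusted p = 0.006696) and Fth1 (0.49, SE 0.13, adjusted p = 0.0133). For Slc11a1, Ftl1 and Fth1 a positive value means a smaller fall at day 5. No group had more than 3 libraries, so no library was tested for standing apart within its group.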

How the results depend on the processing

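Of 2156 values of the 160 gene results under alternatives, 2073 stayed on their side of the threshold, 62 lost the call and 21 gained it. Among those 2073, 77 values of 32 results that were called in neither setting changed sign, such as Tfrc between genotypes at day 3 with RANKL (0.06, and −0.16 without number 3); 0 called results did. With 1 library left out, all 10 genes stayed called for RANKL against M-CSF in controls and at day 3 in the libraries labelled Runx1 overexpression, and 9 to 10 at day 5; the calls lost in RANKL comparisons under any alternative were those of Ireb2. With no filter on low counts, 3 genes in place of 5 were called for day 5 against day 3 without RANKL in controls, 4 in place of 7 with RANKL in controls and 4 in place of 8 with RANKL in the other genotype. With only the compared groups in the fit, 1 in place of 3 was called for that genotype without RANKL. Without its number 3 libraries, 1 in place of 0 was called between genotypes at day 3 without RANKL. The cause was not tested. Leaving out 1 library gave 3 to 4 genes for the change with time without RANKL and 4 to 8 with RANKL in controls, 1 to 4 and 4 to 9 in the other genotype, and 3 to 5 for its RANKL response by day. The log2 ratios then ran from −0.6281 to −0.5946 for Fth1 to Ftl1 and from 4.3193 to 4.5169 for Tfrc to Fth1. Same-numbered libraries of a genotype had correlations of their deviations from the group means of −0.066 to 0.369 (median 0.079, 15 of 36 pairs over 0.1), against a median of −0.041 and 4 of 72 pairs for different numbers. Not every pair passed 0.1 and no label says what a number marks, so the numbers were not used to pair libraries, although the 4 number 3 libraries labelled Runx1 overexpression share the male pattern. With the number as a replicate block, Tfrc was called for day 5 against day 3 without RANKL in both genotypes (0.62, adjusted p = 0.03753, and 0.84, adjusted p = 0.01247), Slc11a2 for the RANKL response by day in the libraries labelled Runx1 overexpression (−0.43, adjusted p = 0.01181), and Ireb2 was not called for their change with time under RANKL (−0.20, adjusted p = 0.05062); no other call changed, and the ratios were −0.6143 and 4.3986 (exact p = 0.000488, the smallest that 4096 sign changes can give, 12 of 12 pairs). For the ratio of Tfrc to Fth1 that p too was fixed by the separation of both genes between the media. Depth limits Steap4 without RANKL, where counts were 0 to 3 per group.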
